A study of Mus musculus with 51 samples.

Results

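The pentose phosphate and NADPH enzymes described here are 7 genes chosen by name: G6pdx, Pgd, Tkt, Taldo1, Rpia, Me1 and Idh1. They were chosen with earlier results of these data known. Every probe set whose only gene symbol was one of these names was taken. That gave 12 probe sets for 6 genes, of 22626 probe sets and 12393 genes with a single-symbol probe set on the arrays. All 12 lay above the filter on dim probe sets, so the account covers all 6 measured members. G6pdx, the first enzyme of the pathway, had no such probe set and its expression was not analysed here.

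The study profiled the mouse ventral prostate, a secretory lobe of the prostate gland, on 51 Affymetrix arrays, each of total RNA from a biological replicate. All mice were of the FVB strain and, per the labels, aged 8 to 10 weeks on a standard diet. They were either wild type or carried the AKT1 transgene, and AKT1 is a kinase that signals growth and nutrient uptake, in part through the mTOR complex. RAD001 (everolimus) is a drug that inhibits that complex, and the stated purpose of the series was to separate markers of drug exposure from markers of response. Of the 11 wild type arrays, all on placebo, 4 came from 12 h, 4 from 48 h and 3 from 15 d. The 18 placebo arrays of AKT1-transgenic mice numbered 4, 5 and 7 at those times, with a single array at 6 d and another at 9 d. The 22 arrays of AKT1-transgenic mice on RAD001 numbered 5, 4 and 6 at those times, then 3 for 6 d and 4 for 9 d. The promoter that drives the transgene and the dose of RAD001 are not given in the sources used here. RAD001-treated wild type mice were not analysed here, so every RAD001 difference is within transgenic tissue. The labels do not say whether mice were pooled, and the p-values measure the spread between these arrays.

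The pentose phosphate pathway takes glucose 6-phosphate away from glycolysis. Its oxidative branch, in which G6pdx and Pgd act, reduces NADP+ to NADPH and ends in ribulose 5-phosphate, while its non-oxidative branch, run by Rpia, Tkt and Taldo1, interconverts the sugar phosphates that become nucleotides or return to glycolysis. Cytosolic malic enzyme (Me1) and cytosolic isocitrate dehydrogenase (Idh1) form NADPH outside the pathway, and that NADPH feeds fatty acid synthesis and the reduction of glutathione and thioredoxin. The ventral prostate is lined by a secretory luminal epithelium, and AKT and mTOR signalling are known to raise transcription of pentose phosphate genes in other cells.

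Values are the authors' deposited intensities, linear and scaled between arrays by a method that is not stated, with array medians between 91.6 and 109.3 at 12 h, 48 h and 15 d and between 98.1 and 110.4 at 6 d and 9 d. Levels of different probe sets cannot be compared, nor levels of the 42-array and 9-array tables, which were scaled apart. Differences are on the log2 scale after values under 16 were set to 16, each with its standard error (SE) from limma and a Benjamini-Hochberg adjusted p over all 9628 features (9345 in the 9-array table); "called" means an adjusted p under 0.05. Of 12 luminal epithelial markers, 10 were measured and passed the filter, with summed intensities of 17824 to 30235 in the 42-array table and 17741 to 23663 in the 9-array table, and none of the 6 seminal vesicle genes with a probe set did. The 15 d arrays fell into a pair of sets along the first principal component: set A held the 3 wild type arrays, 2 placebo and 2 RAD001 arrays, and set B held 5 placebo and 4 RAD001 arrays and no wild type array. These sets were found in the data and no label names them. Of these 42 arrays, 2 had over 500 values listed at exactly 0, transgenic placebo replicates 8 and 9 at 15 d, both in set B. Of the 9 arrays at 6 d and 9 d, RAD001 replicate 1 at 6 d and RAD001 replicate 3 at 9 d also had over 500.

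Averaged over 12 h, 48 h and 15 d, 5 of the 6 measured members were higher in transgenic than in wild type placebo prostate: Pgd, Tkt, Taldo1, Me1 and Idh1. Of all features, 33.5% were called in this comparison and 14.2% were called higher. The median difference was 0.50 over the 6 members and -0.05 over all features. Because the members were chosen with earlier results of these data known, such contrasts with all features, here and for RAD001, describe these genes. They are no test of the pathway. Pgd had the largest difference in the chosen probe sets, 0.73 ± 0.09 (SE), which is 1.66-fold, and Rpia, at -0.09 ± 0.10, was the member that was not called. These are bulk samples, in which a change in the number of cells of a type and a change in RNA per cell cannot be told apart. Luminal markers were higher in the same comparison, with 5 of 10 called higher and a median of 0.44. Smooth muscle markers fell: 8 of 10 were called lower with a median of -1.01, and their summed intensity was 12299 to 15235 in wild type against 5703 to 7873 in transgenic placebo arrays at 12 h. Fibroblast and matrix markers (6 of 9 lower, median -0.70) and basal epithelial markers (4 of 5 lower, median -0.49) fell as well. The part of these tissue shares in the members' differences was not tested.

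**Figure D1:**
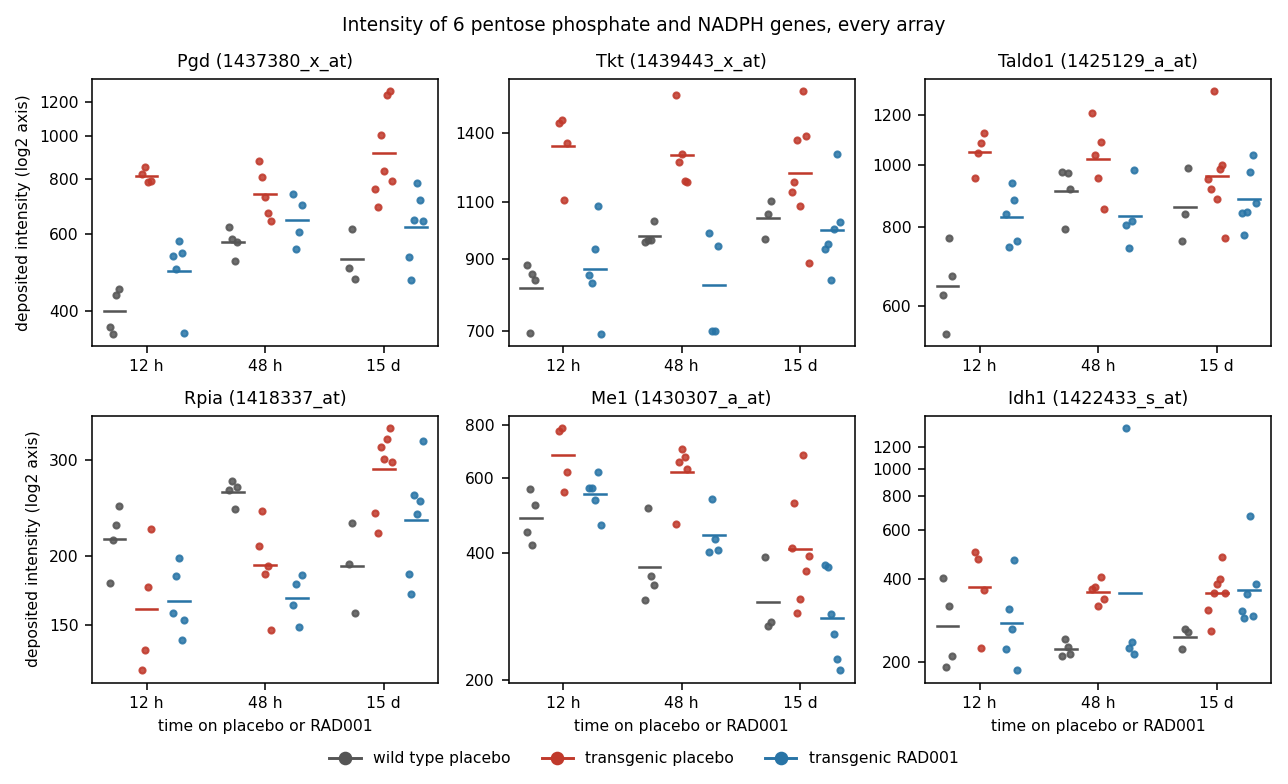
Deposited intensity (log2 axis) of the chosen probe set of each of the 6 measured genes at 12 h, 48 h and 15 d. Each point is 1 array, lines are geometric means, and colours mark wild type placebo, transgenic placebo and transgenic RAD001. Pgd and Tkt in transgenic placebo arrays stand above both other groups at 12 h, Rpia does not, and 1 RAD001 array at 48 h holds an Idh1 value of 1414.

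Pgd, 6-phosphogluconate dehydrogenase, catalyses the second NADPH-forming step of the oxidative branch. Among the chosen probe sets it was the member most often called. At 12 h its probe set 1437380_x_at read 368, 355, 435 and 448 in wild type arrays. Transgenic placebo arrays read 819, 854, 787 and 793, and RAD001 arrays read 534, 498, 576, 541 and 356. The 3 groups were ordered wild type, RAD001, placebo by mean; every placebo array lay above every other array, while the RAD001 array at 356 lay among the wild type arrays. The genotype difference was 1.03 ± 0.17 (2.04-fold; adjusted p = 2.70e-05). RAD001 lowered Pgd by 0.72 on the log2 scale (SE 0.16; adjusted p = 0.0156), with 5 of 5 RAD001 arrays below every placebo array. At 12 h, 20.6% of features were called by genotype, 1.47% by RAD001, 3.94% of features had RAD001 arrays wholly below placebo, and 13.6% had transgenic arrays wholly above wild type. The RAD001 call at 12 h was lost without placebo replicate 1 (adjusted p = 0.0507), placebo replicate 2 (0.0592) or RAD001 replicate 5 (0.0601).

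At 48 h, on 1437380_x_at of Pgd, wild type arrays read 620, 584, 521 and 575, placebo arrays 879, 810, 728, 669 and 643, and RAD001 arrays 739, 555, 606 and 697. Every placebo array was above every wild type array, and the RAD001 arrays overlapped both groups. Neither the genotype difference of 0.37 ± 0.16 (adjusted p = 0.0818) nor the RAD001 difference of -0.20 ± 0.16 (adjusted p = 0.605) was called. Of all features, 26.6% were called by genotype and 3.54% by RAD001 at 48 h, and 14.3% had transgenic arrays wholly above wild type. The RAD001 difference in Pgd was not shown to change with time (adjusted p = 0.446 for the interaction).

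At 15 d the wild type arrays read 500, 616 and 472 for Pgd. The 7 placebo arrays ran from 690 through a median of 835 to 1270, and the 6 RAD001 arrays from 471 through 643 to 785. All placebo arrays were above all wild type arrays, and 4 of 6 RAD001 arrays were below all placebo arrays. Transgenic tissue was higher by 0.80 ± 0.16 (adjusted p = 8.83e-04), where 19.9% of features were called and 6.45% had transgenic arrays wholly above wild type. RAD001 lowered Pgd by 0.56 on the log2 scale (SE 0.13; adjusted p = 0.00686), where 5.77% of features were called. With the array set as a covariate the genotype difference was 0.46 and no longer called (adjusted p = 0.0913), and the RAD001 difference was -0.54 (adjusted p = 0.00154). Within set B alone Pgd fell by 0.54 (adjusted p = 0.0163), and in set A, with 2 arrays a group, the difference was -0.53 (adjusted p = 0.278). Without the 2 arrays with many zeros, whose Pgd values of 1242 and 1270 were the highest of all, the RAD001 difference was -0.38 (adjusted p = 0.0819).

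The other Pgd probe sets bear on these values, since 3 of the 4 end in x_at, the suffix Affymetrix gives to probe sets with probes that can match other transcripts. Probe set 1438627_x_at correlated with 1437380_x_at at r = 0.97 over 42 arrays, and 1423706_a_at at r = 0.77. Probe set 1423706_a_at read 372, 385, 406 and 383 in wild type at 48 h, 717, 697, 631, 561 and 627 in placebo, and 571, 495, 442 and 468 in RAD001 arrays. Here the placebo arrays were again wholly above wild type, and 1 RAD001 array overlapped them. On that probe set Pgd was higher in transgenic tissue by 0.69 ± 0.06 on average (adjusted p = 1.13e-10), by 0.86 ± 0.11 at 12 h, 0.74 ± 0.11 at 48 h and 0.46 ± 0.11 at 15 d, each called. RAD001 lowered it by 0.58 on the log2 scale at 12 h (SE 0.11; adjusted p = 0.00255) and by 0.39 at 48 h (SE 0.11; adjusted p = 0.0305), and the difference at 15 d was -0.21 ± 0.09 (adjusted p = 0.178). Its 48 h call was lost on leaving out placebo replicate 1, 2 or 3 or RAD001 replicate 4 or 5, with a highest adjusted p of 0.109. When each probe set was tested apart, 33.5% were called by genotype on average, and 1.47%, 3.45% and 5.52% by RAD001 at 12 h, 48 h and 15 d. The fourth, 1436771_x_at, was listed at 0 on placebo replicate 9 at 15 d, and its differences carried SEs of 0.36 to 0.64 with none called. All 4 probe sets had the same sign of difference at 12 h and 48 h. At 15 d 1436771_x_at had the opposite sign, with -0.25 ± 0.62 for genotype and 0.51 ± 0.50 for RAD001. The probe sets also differed in whether genotype was called at 48 h and RAD001 at 48 h or 15 d.

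**Figure D2:**
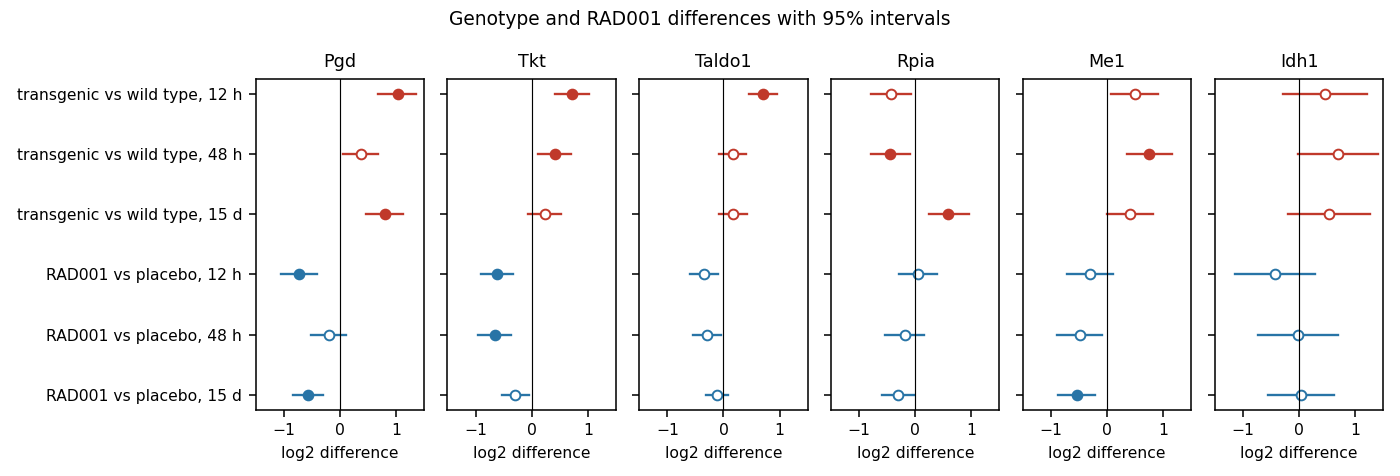
Log2 differences (points) with 95% intervals (lines) for the 6 measured genes, transgenic against wild type placebo in red and RAD001 against placebo in transgenic mice in blue. Filled points had an adjusted p under 0.05. Both kinds of difference use the same transgenic placebo arrays, so opposite signs for a gene are not independent.

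Tkt, transketolase, transfers 2-carbon units between sugars in the non-oxidative branch. At 12 h probe set 1439443_x_at read 881, 694, 855 and 837 in wild type arrays. Transgenic placebo arrays read 1452, 1463, 1107 and 1354, and RAD001 arrays 850, 828, 933, 1082 and 693. All placebo arrays lay above all arrays of both other groups, and RAD001 and wild type arrays overlapped. Transgenic tissue exceeded wild type by 0.72 ± 0.15 (1.64-fold; adjusted p = 5.78e-04). RAD001 lowered Tkt by 0.62 on the log2 scale (SE 0.14; adjusted p = 0.0178), a call lost without placebo replicate 1 (adjusted p = 0.0829), placebo replicate 2 (0.0737) or RAD001 replicate 5 (0.0672).

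At 48 h the Tkt wild type arrays read 956, 962, 962 and 1027. The placebo arrays read 1602, 1266, 1300, 1184 and 1180, and the RAD001 arrays 987, 700, 700 and 941. Placebo arrays were again wholly above both groups, and 3 of 4 RAD001 arrays were below all wild type arrays. RAD001 lowered Tkt by 0.66 on the log2 scale (SE 0.14; 1.58-fold; adjusted p = 0.00546), the only call among the 6 chosen probe sets for RAD001 at 48 h. This call held when any single array was left out, with a highest adjusted p of 0.0324, and 3.17% of features had RAD001 arrays wholly below placebo at this time. The genotype difference of 0.41 ± 0.14 (adjusted p = 0.0279) was lost on leaving out wild type replicate 1, 2 or 3 or placebo replicate 1.

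At 15 d the Tkt groups overlapped. Wild type arrays read 966, 1052 and 1103, placebo arrays ran from 887 through a median of 1178 to 1622, and RAD001 arrays from 837 through 974 to 1301. The genotype difference was 0.23 ± 0.14 (adjusted p = 0.262) and the RAD001 difference -0.29 ± 0.12 (adjusted p = 0.152), neither called. The second Tkt probe set, 1451015_at, correlated with the first at r = 0.67 over 42 arrays. RAD001 lowered it by 0.62 at 12 h (SE 0.13; adjusted p = 0.00763; 0.0515 without placebo replicate 2) and by 0.74 at 48 h (SE 0.13; adjusted p = 5.27e-04), while at 15 d its RAD001 difference was -0.03 ± 0.10 and its genotype difference -0.12 ± 0.13. At 48 h its placebo arrays read 1110, 949, 868, 929 and 979 and its RAD001 arrays 678, 561, 537 and 537, with no overlap. On this probe set both the genotype difference (adjusted p = 0.00561) and the RAD001 difference (adjusted p = 0.0458) changed with time, where 21.3% and 0.398% of probe sets were called. The RAD001 interaction had an adjusted p of 0.0953 without the arrays with many zeros, and without set B the 2 interactions had 0.17 for genotype and 0.653 for RAD001. On 1439443_x_at neither interaction was called, with adjusted p of 0.178 and 0.472.

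**Figure D3:**
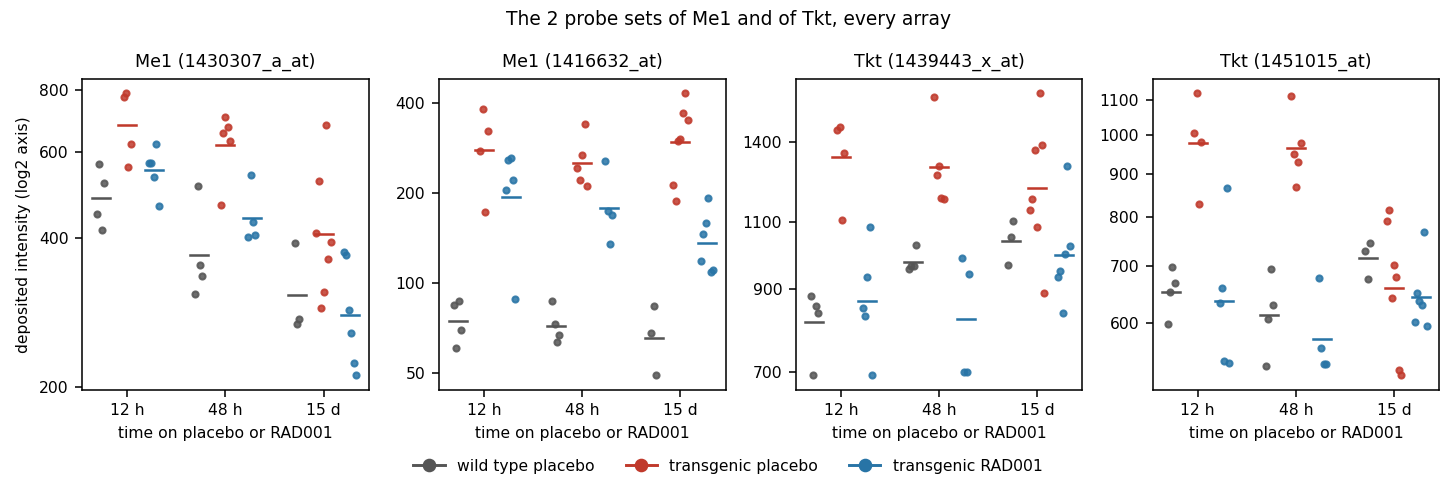
Deposited intensity (log2 axis) of both probe sets of Me1 and both of Tkt at 12 h, 48 h and 15 d, with 1 point per array and lines at geometric means. On Me1 probe set 1416632_at the wild type arrays, all between 49 and 87.2, lie below every transgenic array, and on Tkt probe set 1451015_at the 15 d groups overlap. Transgenic placebo arrays were wholly above wild type in 13.6%, 14.3% and 6.45% of features at 12 h, 48 h and 15 d.

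Taldo1, transaldolase, transfers 3-carbon units in the same branch. At 12 h its single probe set, 1425129_a_at, read 623, 542, 768 and 668 in wild type arrays. Placebo arrays read 956, 1046, 1085 and 1125, and RAD001 arrays 836, 743, 939, 881 and 760. The placebo group was wholly above both others, and 3 of 5 RAD001 arrays were above all wild type arrays. The genotype difference was 0.70 ± 0.13 (1.63-fold; adjusted p = 1.07e-04). The RAD001 difference of -0.34 ± 0.12 was not called (adjusted p = 0.172), although 5 of 5 RAD001 arrays were below every placebo array. At 48 h and 15 d the genotype difference was 0.17 ± 0.12 at each time and not called. The genotype difference in Taldo1 changed with time (F = 6.13, adjusted p = 0.0338), where 20.4% of features were called. The interaction kept an adjusted p of 0.0363 with the array set as a covariate. It was lost on leaving out placebo replicate 2, 3 or 4 or wild type replicate 1 or 2 at 12 h, wild type replicate 1 at 48 h or wild type replicate 3 at 15 d, with a highest adjusted p of 0.0951.

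The wild type level of Taldo1 also differed between times. Wild type arrays at 48 h read 974, 792, 971 and 917 and at 15 d 760, 838 and 990, so that all but 1 of these 7 arrays were above the highest 12 h array. Time was called within wild type placebo for Taldo1 (adjusted p = 0.00853) and Pgd (adjusted p = 0.0432), where 24.4% of features were called. On 1437380_x_at of Pgd every 48 h and 15 d wild type array was above every 12 h array. The share of features with such separations between wild type times was not computed. On 1423706_a_at, which read 342, 410, 390 and 356 at 12 h, the 48 h values of 372 to 406 overlapped them, and time was not called there (adjusted p = 0.305), on 1438627_x_at (0.132) or on 1436771_x_at (0.845). The 1437380_x_at call was lost on leaving out replicate 1, 2 or 3 at 12 h, 1, 2 or 4 at 48 h or 2 at 15 d, with a highest adjusted p of 0.144, and the Taldo1 call without replicate 2 at 12 h (adjusted p = 0.0632). In transgenic placebo arrays neither gene was called for time, with adjusted p of 0.588 for Taldo1 and 0.151 for Pgd. A change with time in the genotype difference of Pgd was not called on 1437380_x_at (adjusted p = 0.0812). Nor was it on 1423706_a_at (0.111), 1438627_x_at (0.19) or 1436771_x_at (0.567). With the array set as a covariate it was called on 1437380_x_at (adjusted p = 0.0428), where 963 of 9628 features were called. Other fits that called more members for genotype by time are given below.

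Rpia, ribose 5-phosphate isomerase, makes ribose 5-phosphate for nucleotides and was lower, not higher, in transgenic tissue at 48 h. At 48 h probe set 1418337_at read 264, 275, 244 and 268 in wild type arrays. Placebo arrays read 209, 242, 186, 192 and 147, and RAD001 arrays 163, 178, 149 and 185. Both transgenic groups were wholly below wild type, as were 14.8% of features for placebo and 11.3% for RAD001 arrays, with genotype difference -0.45 ± 0.17 (adjusted p = 0.0465) and RAD001-treated against wild type difference -0.64 ± 0.18 (adjusted p = 0.015). The genotype call at 48 h was lost under quantile normalization (adjusted p = 0.0813), under median scaling (0.0768) and on leaving out any of wild type replicates 1 to 4 or placebo replicates 3, 4 and 5, with a highest adjusted p of 0.144. At 12 h wild type Rpia read 179, 214, 228 and 247 and placebo 124, 135, 176 and 224, a difference of -0.43 ± 0.18 that was not called (adjusted p = 0.0856).

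At 15 d Rpia had the opposite sign. Wild type arrays read 194, 230 and 158, placebo arrays ran from 221 through a median of 301 to 343, and RAD001 arrays from 171 through 245 to 324. Of 7 placebo arrays, 6 were above every wild type array, a difference of 0.59 ± 0.17 (adjusted p = 0.0153) that was 0.51 and not called without the arrays with many zeros (adjusted p = 0.0587). The call was also lost without wild type replicate 1 or 3. The genotype difference in Rpia changed with time (F = 11.73, adjusted p = 0.0047). The array sets moved with this result. In set A the placebo arrays read 240 and 221 beside wild type values of 158 to 230, and the 5 set B placebo arrays read 297 to 343. With the array set as a covariate the 15 d difference was 0.22 (adjusted p = 0.596) and the interaction had an adjusted p of 0.0649, and without set B they were 0.27 (0.653) and 0.104. RAD001 arrays of set A read 186 and 171 and those of set B 239 to 324. No RAD001 difference in Rpia was called at any time, and the values were 0.05 ± 0.17 at 12 h, -0.19 ± 0.17 at 48 h and -0.31 ± 0.14 at 15 d.

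**Figure D4:**
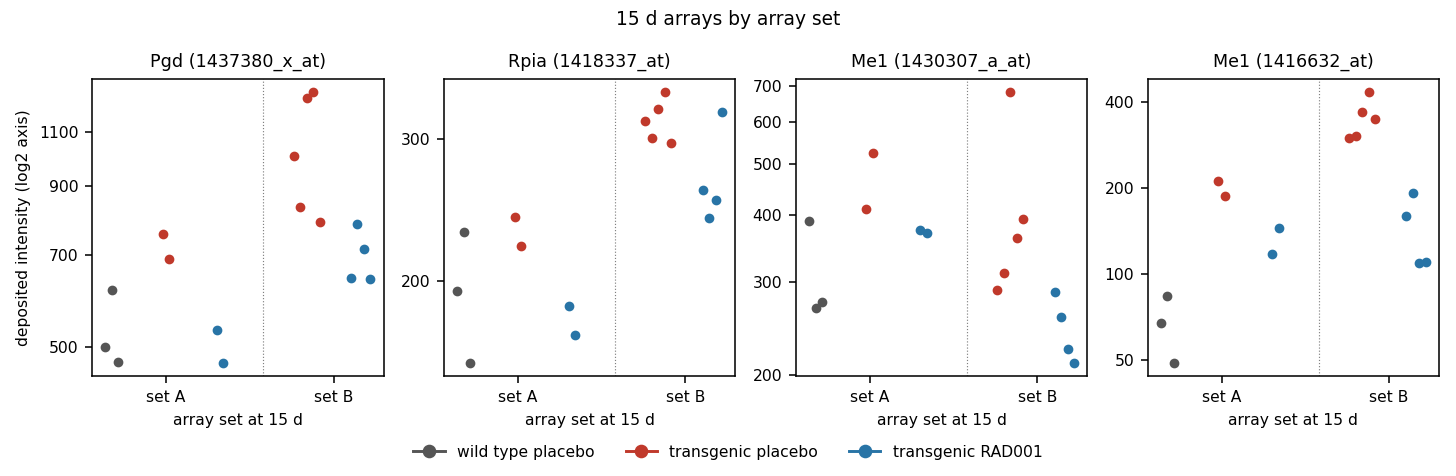
Deposited intensity (log2 axis) of Pgd, Rpia and both Me1 probe sets at 15 d, split by array set, with 1 point per array coloured by group. Set B holds no wild type array. Rpia placebo values are 221 and 240 in set A and 297 to 343 in set B. Pgd RAD001 arrays lie below the placebo arrays in both sets, where set A has only 2 arrays of each of these groups. The share of features with this separation within a set was not computed.

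Me1, cytosolic malic enzyme, turns malate into pyruvate and forms NADPH. Its brighter probe set, 1430307_a_at, read 309, 511, 353 and 336 in wild type arrays at 48 h. Placebo arrays read 468, 654, 705, 673 and 631, and RAD001 arrays 402, 537, 431 and 406. Of 5 placebo arrays, 4 were above every wild type array, and 3 of 4 RAD001 arrays were below every placebo array. The genotype difference was 0.75 ± 0.20 (1.68-fold; adjusted p = 0.00481), against 0.49 ± 0.21 at 12 h (adjusted p = 0.0947) and 0.41 ± 0.20 at 15 d (adjusted p = 0.144). The average over times was 0.55 ± 0.12 (adjusted p = 3.42e-04).

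On the second Me1 probe set, 1416632_at, the genotypes did not overlap. Wild type arrays read 84.2, 60.4, 87.2 and 69.7 at 12 h, 86.8, 72.7, 63.2 and 66.9 at 48 h, and 67.7, 83.9 and 49 at 15 d. Placebo arrays read 276, 382, 173 and 322 at 12 h and 242, 221, 268, 339 and 210 at 48 h, and ran from 187 through a median of 303 to 431 at 15 d. No transgenic placebo array at any of these times came below 173, and no wild type array came above 87.2. At 12 h, 48 h and 15 d, 13.6%, 14.3% and 6.45% of features had transgenic placebo arrays wholly above wild type. A share over all these times together was not computed. These wild type values lie below their arrays' median intensity, and whether they were above background is not stated in the files, so the size of the difference on this probe set is uncertain. The genotype difference was 1.96 ± 0.16 on average (adjusted p = 7.93e-12), with 1.89 ± 0.28 at 12 h, 1.81 ± 0.27 at 48 h and 2.18 ± 0.27 at 15 d, each called, as were 21%, 25.6% and 21% of all probe sets at these times. With the array set as a covariate the average was 1.85 (adjusted p = 7.46e-11) and the 15 d value 1.86 (adjusted p = 0.000395). The 2 probe sets correlated at r = 0.41 over 42 arrays, and no source used here says which transcripts each one reads. The genotype difference in Me1 was positive on both probe sets at each time, and their sizes were not compared by a test.

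Both Me1 probe sets were also called lower with RAD001 at 15 d, and on each the groups overlapped. At this time 5.77% of features and 5.52% of probe sets tested apart were called. On 1416632_at the RAD001 arrays ran from 109 through 132 to 192, against 187 to 431 on placebo, so that 1 RAD001 array overlapped 1 placebo array. RAD001 lowered this probe set by 1.12 on the log2 scale (SE 0.22; adjusted p = 0.00148), by 1.10 with the array set as a covariate (adjusted p = 0.000946) and by 1.32 within set B (adjusted p = 0.00245); in set A, where placebo read 212 and 187 and RAD001 118 and 145, the difference was -0.61 (adjusted p = 0.787). On 1430307_a_at the placebo arrays ran from 289 through 394 to 681 and the RAD001 arrays from 211 through 272 to 375. Me1 fell by 0.54 there (SE 0.16, adjusted p = 0.0411), by 0.56 with the array set as a covariate (adjusted p = 0.0164) and by 0.67 within set B (adjusted p = 0.0268). In set A its difference was -0.32 (adjusted p = 0.881). The call on 1430307_a_at was lost on leaving out placebo replicate 2, 8 or 10 or RAD001 replicate 3, 4, 6 or 7, with a highest adjusted p of 0.118. Other settings that lost it were only the groups compared (adjusted p = 0.235), a replicate block (0.311), array weights (0.0814) and no filter on dim probe sets (0.0542). It was also lost without the arrays with many zeros (-0.43; adjusted p = 0.154), and that on 1416632_at was not (-0.95; adjusted p = 0.0147). At 12 h and 48 h the RAD001 differences were -0.52 ± 0.27 and -0.50 ± 0.27 on 1416632_at and -0.30 ± 0.20 and -0.49 ± 0.20 on 1430307_a_at, none called.

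RAD001-treated transgenic arrays still held more Me1 signal than wild type arrays on 1416632_at. RAD001 arrays read 205, 258, 262, 220 and 87.9 at 12 h and 255, 174, 135 and 169 at 48 h, each above every wild type array of the same time, as held for 9.8% and 11.4% of features. The differences from wild type were 1.37 ± 0.27 (adjusted p = 3.43e-04), 1.31 ± 0.28 (adjusted p = 0.00194) and, at 15 d, 1.06 ± 0.28 (adjusted p = 0.044), where 17.6%, 12.5% and 1.65% of probe sets were called. The 15 d call was lost on leaving out wild type replicate 1 or 3 or RAD001 replicate 3, 4 or 7, with a highest adjusted p of 0.213, and with the array set as a covariate (0.76; adjusted p = 0.516). On 1430307_a_at the same differences were 0.18 ± 0.20, 0.25 ± 0.21 and -0.13 ± 0.21, none called.

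Idh1, cytosolic isocitrate dehydrogenase, forms NADPH from isocitrate, and its data were the least even of the members. Probe set 1422433_s_at read 209, 242, 226 and 214 in wild type arrays at 48 h. Placebo arrays read 367, 374, 318, 405 and 339, and RAD001 arrays 1414, 224, 236 and 213. Placebo was wholly above wild type, and 3 of 4 RAD001 arrays lay within 213 to 236 while replicate 1 stood at 1414. The RAD001 difference at 48 h was -0.02 ± 0.35 with that array and -0.68 without it (adjusted p = 0.154). The average genotype difference of 0.57 ± 0.21 (adjusted p = 0.034) was lost with the array set as a covariate (0.46; adjusted p = 0.11), without the arrays with many zeros (0.53; adjusted p = 0.0536) and on leaving out wild type replicate 2 or 4 or placebo replicate 1 or 2 at 12 h or wild type replicate 1 at 15 d, with a highest adjusted p of 0.0669. At each time alone it was not called, with 0.47 ± 0.37, 0.69 ± 0.35 and 0.53 ± 0.36. These SEs pool the spread of all groups. At 48 h the log2 SD was 0.09 in wild type, 0.14 in placebo and 1.33 in RAD001 arrays. With only the groups compared, the 48 h genotype difference of 0.69 was called (adjusted p = 5.20e-04), as were 3273 of 9628 features. The second probe set, 1419821_s_at, was listed at 0 on the same RAD001 replicate 1 at 48 h and read 114, 74.3 and 76.3 on the other RAD001 arrays, against 141, 160, 141, 154 and 161 on placebo. The 2 Idh1 probe sets correlated at r = -0.07 over 42 arrays. On 1419821_s_at the RAD001 difference at 48 h was -1.41 ± 0.31 (adjusted p = 0.00776) and -0.81 without the array at 0 (adjusted p = 0.0388), and its average genotype difference was 0.29 ± 0.18 (adjusted p = 0.243).

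Counted on the 6 chosen probe sets, RAD001 lowered 2 members at 12 h (Pgd and Tkt), 1 at 48 h (Tkt) and 2 at 15 d (Pgd and Me1), and raised none that was called. Pgd on 1423706_a_at and Idh1 on 1419821_s_at were also called lower at 48 h, as given above. The members' median RAD001 difference was -0.39 at 12 h, -0.25 at 48 h and -0.30 at 15 d, against 0.02, 0.00 and 0.02 over all features. Called lower were 0.831%, 1.53% and 3.26% of all features at these times. Of the 10 smooth muscle markers RAD001 raised 1, 2 and 4 at these times, with medians of 0.52, 0.56 and 0.37, and of the 10 luminal markers it lowered 1, 2 and 2, with medians of -0.04, -0.21 and -0.09. It raised 0, 2 and 2 of the 9 fibroblast and matrix markers (medians 0.15, 0.34 and 0.55) and 0, 2 and 1 of the 5 basal markers (medians 0.26, 0.42 and 0.21). The summed intensity of smooth muscle markers at 12 h was 8494 to 12493 in RAD001 arrays, between the placebo range of 5703 to 7873 and the wild type range of 12299 to 15235, and that of luminal markers was 19128 to 26009 against 25071 to 28330 on placebo. Their part in the members' RAD001 differences was not tested.

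Compared with wild type placebo, RAD001-treated transgenic arrays had 1 of 6 members called at 12 h (Taldo1, 0.36 ± 0.12, adjusted p = 0.0342), 1 at 48 h (Rpia, given above) and none at 15 d in the chosen probe sets. Of all features 17%, 13.3% and 1.49% were called. The Taldo1 call was lost under median scaling (adjusted p = 0.0814) and on leaving out wild type replicate 1, 2 or 4 or RAD001 replicate 1, 3 or 4, with a highest adjusted p of 0.156. On the chosen probe sets these differences were 0.31 ± 0.16, 0.17 ± 0.17 and 0.24 ± 0.17 for Pgd, and 0.09 ± 0.14, -0.25 ± 0.15 and -0.06 ± 0.15 for Tkt. Pgd on 1423706_a_at was called higher at 48 h (0.35 ± 0.11, adjusted p = 0.0346), where 12.5% of probe sets were called. That call was lost without wild type replicate 1, 2 or 4 or RAD001 replicate 1 or 2. Idh1 on 1419821_s_at was called lower at 48 h (-0.99 ± 0.33, adjusted p = 0.0412). Without RAD001 replicate 1 it stood at -0.38 (adjusted p = 0.32). The 95% interval for Pgd at 12 h ran from -0.01 to 0.63 and that for Tkt from -0.19 to 0.38, so a missed call does not show equal levels. The 15 d value of Pgd was -0.08 once the array set was a covariate. These comparisons share the wild type and RAD001 arrays with those above.

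At 6 d and 9 d, with 1 placebo array at each time, no member was called, and 0.888% of features were. Tkt read 1442 on the 6 d placebo array and 977, 1103 and 934 on RAD001 arrays, and 1429 on the 9 d placebo array and 1022, 1110, 793 and 856 on RAD001 arrays. All 7 RAD001 arrays were below both placebo arrays, as in 7.63% of features, with a difference of -0.57 ± 0.14 (adjusted p = 0.147). Pgd probe set 1436771_x_at, the brightest of Pgd in this table, read 803 on placebo and 680, 675 and 737 on RAD001 at 6 d, and 796 on placebo and 779, 635, 560 and 572 on RAD001 at 9 d. These RAD001 arrays were also all below both placebo arrays, again against 7.63% of features, with a difference of -0.27 ± 0.14 (adjusted p = 0.601). Taldo1 read 1136 against 1062, 899 and 966 at 6 d and 1100 against 987, 794, 806 and 823 at 9 d, a difference of -0.30 ± 0.11 (adjusted p = 0.41). Me1 probe set 1430307_a_at was listed at 0 on RAD001 replicate 3 at 9 d, which gave -0.78 ± 1.14; its other probe set, 1416632_at, read 259 on placebo and 142, 240 and 151 on RAD001 at 6 d and 244 on placebo and 160, 170, 197 and 199 on RAD001 at 9 d, a difference of -0.51 ± 0.22 (adjusted p = 0.503), where 0.803% of probe sets were called. Rpia (-0.03 ± 0.17) and Idh1 (0.08 ± 0.19) showed no difference larger than their errors.

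**Figure D5:**
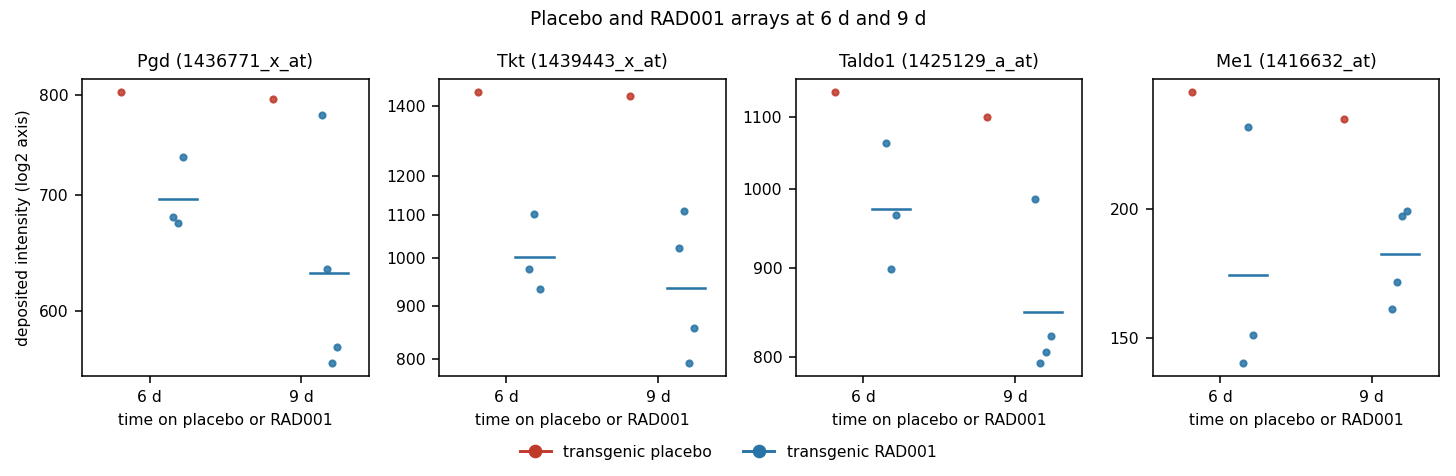
Deposited intensity (log2 axis) of Pgd, Tkt, Taldo1 and Me1 probe sets in the separately scaled 6 d and 9 d arrays, with 1 point per array and lines at the geometric means of RAD001 groups. Each time has 1 transgenic placebo array, and the 7 RAD001 values of Tkt, 793 to 1110, lie below both placebo values, as in 7.63% of features.

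Across the 42 arrays Pgd, Tkt and Taldo1 varied together. On the chosen probe sets Pearson's r of log2 values was 0.77 for Pgd and Tkt, 0.73 for Pgd and Taldo1 and 0.77 for Tkt and Taldo1. With Me1 on 1430307_a_at, Pgd stood at 0.04 and Rpia at -0.49. The other Me1 probe set, 1416632_at, correlated with 1430307_a_at at 0.41. Its correlations with the other members are not given here, so the Me1 values hold for 1430307_a_at alone. These values pool genotype, drug, time and array set and are a description only. The genes most like Pgd were Gtf3c6, Cycs (cytochrome c) and Cyb5r3, each at r = 0.84. For Tkt they were Cyp51, a sterol synthesis enzyme, at 0.84, Dbi, an acyl-CoA binding protein, at 0.79, and Pgd at 0.77. Tkt at 0.77 was the gene most like Taldo1, followed by Psmc4 and Jpt1 at 0.74. Rpia was most like Cntd1 and Wdr75 at 0.82 and Aco1 at 0.81. The Me1 probe set 1430307_a_at was most like Desi1 at 0.86, Stac2 at 0.85 and Mettl21a at 0.84, and Idh1 like Abcc3 at 0.79, Ier3 at 0.76 and Slc40a1 at 0.69.

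The promoters of Pgd, Tkt and Taldo1, which varied together, and of Me1, whose genotypes did not overlap on 1416632_at, are shown to let their letters be set side by side. Each is the RefSeq window of 300 bases at the gene's start on GRCm38.p6, from 250 bases before the start to 50 after it, read on the gene's own strand. The Pgd window lies on the minus strand at chr4:149166656-149166955, the Tkt window on the plus strand at chr14:30548881-30549180, the Taldo1 window on the plus strand at chr7:141391910-141392209 and the Me1 window on the minus strand at chr9:86695865-86696164. Capitals mark a match to any motif searched.
Pgd: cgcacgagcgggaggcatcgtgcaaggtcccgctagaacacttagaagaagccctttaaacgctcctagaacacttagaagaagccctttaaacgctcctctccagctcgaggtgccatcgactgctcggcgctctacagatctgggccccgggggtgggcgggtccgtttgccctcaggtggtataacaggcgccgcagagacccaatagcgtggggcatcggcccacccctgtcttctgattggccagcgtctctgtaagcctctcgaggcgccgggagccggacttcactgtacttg
Tkt: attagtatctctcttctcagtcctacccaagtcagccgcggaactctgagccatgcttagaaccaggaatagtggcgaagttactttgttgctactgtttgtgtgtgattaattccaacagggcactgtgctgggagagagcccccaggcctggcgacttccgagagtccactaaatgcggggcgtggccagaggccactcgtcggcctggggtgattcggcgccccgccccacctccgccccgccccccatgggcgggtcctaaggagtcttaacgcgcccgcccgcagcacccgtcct
Taldo1: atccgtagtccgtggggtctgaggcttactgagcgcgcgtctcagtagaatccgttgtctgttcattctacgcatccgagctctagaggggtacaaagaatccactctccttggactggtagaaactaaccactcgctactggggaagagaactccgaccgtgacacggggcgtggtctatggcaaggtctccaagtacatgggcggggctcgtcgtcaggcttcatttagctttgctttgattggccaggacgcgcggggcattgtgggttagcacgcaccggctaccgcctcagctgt
Me1: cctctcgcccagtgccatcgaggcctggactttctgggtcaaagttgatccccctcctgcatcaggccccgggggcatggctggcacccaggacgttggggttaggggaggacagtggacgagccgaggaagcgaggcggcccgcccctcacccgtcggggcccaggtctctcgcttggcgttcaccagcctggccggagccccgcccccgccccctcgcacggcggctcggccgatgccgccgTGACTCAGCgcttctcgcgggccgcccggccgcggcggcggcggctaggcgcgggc
On both strands the letters TGACNNNGC (the antioxidant response element, bound by NRF2), TCACNCCAC (a sterol regulatory element), CACGTG (the E-box, bound by MYC and related factors), ACGTG (the core of the hypoxia response element, which lies inside the E-box) and TGACTCA (the AP-1 site, whose letters can overlap the antioxidant response element) were searched. Me1 held 1 antioxidant response element match, TGACTCAGC, which begins 6 bases before the start and contains the AP-1 letters. The Pgd, Tkt and Taldo1 windows printed, and those of Rpia and Idh1 at the gene start, held none of the 5 motifs. A second RefSeq window of Pgd, at chr4:149166033-149166332, held the match TGACATTGC beginning 4 bases into the transcript, and a second one of Me1, at chr9:86687228-86687527, held the hypoxia core on the reverse strand 98 bases before its start. Of 32851 windows of this length in the table, 12.4% held the antioxidant response element letters, 1.24% the sterol regulatory element, 7.15% the E-box, 19.6% the hypoxia core and 5.2% the AP-1 letters. A match describes letters in this window and no binding was measured.

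The neighbouring enzymes did not share a single direction. Of 17 other pentose phosphate and NADPH-forming enzymes, 14 were tested for the average genotype difference, and 2 were higher and 5 lower, with a median of -0.00. In this comparison 14.2% of all features were called higher and 19.2% lower. Pgm2 (0.70 ± 0.08, adjusted p = 6.73e-09), which interconverts pentose phosphates, and Rpe (0.56 ± 0.08, adjusted p = 1.21e-06), the ribulose 5-phosphate epimerase of the non-oxidative branch, rose. Mthfd1, which forms NADPH in folate metabolism (-0.62 ± 0.07), Rbks, ribokinase (-0.64 ± 0.12), Nadk, the NAD kinase that makes NADP+ (-0.29 ± 0.06), and the ribose phosphate pyrophosphokinases Prps1 (-0.46 ± 0.09) and Prps2 (-0.25 ± 0.08) fell. Pgls, the lactonase between G6pdx and Pgd, stood at 0.04 ± 0.06 and mitochondrial Idh2 at 0.04 ± 0.06, neither called. Nadk, Prps1, Prps2, Pgls and Idh2 were named after their values were seen. RAD001 lowered 1 of the 14 at 12 h (Rpe, -0.53 ± 0.14, adjusted p = 0.0405), 2 at 48 h (Pgm2, -0.68 ± 0.13, adjusted p = 0.00207, and Rpe, -0.62 ± 0.14, adjusted p = 0.00746) and 1 at 15 d (Dera, -0.35 ± 0.09, adjusted p = 0.0157). At these times 0.831%, 1.53% and 3.26% of all features were called lower.

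Genes that use NADPH or share regulators with the members also included called differences of both signs. For the average genotype difference, 14.2% of all features were called higher and 19.2% lower, so small counts of both signs do not set these lists apart. Of 15 NADPH-using reductases, 7 were tested: Akr1a1, an aldehyde reductase, was higher in transgenic tissue (0.19 ± 0.04), Cbr1, a carbonyl reductase, was lower (-0.21 ± 0.08), and glutathione reductase (Gsr, 0.11 ± 0.10) was not called. Of 13 NRF2 target genes, 10 were tested, with Abcc1 higher (0.43 ± 0.09) and the glutathione transferases Gsta4 (-0.76 ± 0.13) and Gstm1 (-0.37 ± 0.07) lower, and a median of -0.09. Gstm1 rose with RAD001 at 15 d (0.44 ± 0.10, adjusted p = 0.00368). Of 14 SREBP1 lipogenic genes, 10 were tested, with 2 higher and 3 lower. Acss2, which makes acetyl-CoA from acetate, was higher in transgenic tissue (0.49 ± 0.07) and fell with RAD001 at 12 h (-0.54 ± 0.11, adjusted p = 0.0106) and 15 d (-0.63 ± 0.09, adjusted p = 5.56e-05). Srebf1 itself (-0.51 ± 0.08), Fads1 (-0.41 ± 0.06) and Scd1 (-0.69 ± 0.12) were lower in transgenic tissue, and at 15 d RAD001 raised Fads1 (0.46 ± 0.08) and lowered Scd2 (-0.33 ± 0.10) and Scd1 (-0.52 ± 0.16).

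Within transgenic placebo mice, time was called for Rpia (adjusted p = 6.48e-05) and for Me1 on 1430307_a_at (adjusted p = 0.00132), where 48.2% of features were called. It was also called for Tkt on 1451015_at (F = 17.26, adjusted p = 4.92e-05), but not on 1439443_x_at (adjusted p = 0.647). Transgenic placebo arrays on 1451015_at read 1005, 1120, 828 and 982 at 12 h and ran from 521 through 680 to 816 at 15 d. With the array set as a covariate that Tkt call had an adjusted p of 0.0315, and without set B 0.316. Me1 placebo arrays read 776, 789, 558 and 622 at 12 h and had geometric means of 679, 620 and 408 at 12 h, 48 h and 15 d. With that covariate neither Rpia nor Me1 was called, with adjusted p of 0.0711 for Rpia and 0.305 for Me1. Probe set 1416632_at of Me1 did not follow, with transgenic placebo geometric means of 277, 252 and 296 (adjusted p = 0.695), where 47.9% of probe sets were called. The RAD001 difference changed with time for none of the 6 chosen probe sets, where 0.499% of features were called, and their lowest adjusted p was 0.446.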

How the data were processed

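Per the labels, 51 ventral prostate RNA samples were profiled on Affymetrix arrays. The authors deposited linear intensities in a pair of tables (42 and 9 arrays), and how they were summarised and scaled is not stated in those sources. The members and gene lists were chosen with earlier results of these data known. Values under 16 were set to 16 and put on the log2 scale. Probe sets below the 40th percentile of mean signal were left out, as were 2 with values above 1e+06, and the brightest probe set stood for each gene. limma 3.58.1 (R 4.3.3) fitted all groups of a table with lmFit and eBayes (trend), with Benjamini-Hochberg adjustment over all features. The comparisons were transgenic against wild type placebo, RAD001 against placebo in transgenic mice and RAD001-treated transgenic against wild type, at each time, with F-tests across times. Each probe set was also tested apart. The code was tested on simulated data. The number of arrays limits the precision. Alternatives were other floors, filters and scalings, array weights, a replicate block, the array set as a covariate and left-out arrays. Genes of other lists were named by smallest p (up to 4 per list and comparison), and genes most like a member by the 3 highest correlations. Array sets were read from the first principal component (26.1% of the variance). Promoter windows and gene names came from RefSeq, and probe set names from GEO's platform annotation.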

Additional observations from a re-analysis of the deposited data

Results flagged for a closer look

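Of 54 combinations of a gene and a group of 4 to 7 arrays, 6 held an array far from the others of its group, where chance alone flags about 1 in 20 such combinations. Idh1 (1422433_s_at) stood at a log2 intensity of 10.47 on RAD001 replicate 1 at 48 h, with the nearest array at 7.88, and at 9.40 on RAD001 replicate 4 at 15 d, with the nearest at 8.58. Me1 (1430307_a_at) was at 4.0, the floor, on RAD001 replicate 3 at 9 d, with the nearest array at 8.48, and at 8.87 on transgenic placebo replicate 1 at 48 h, with the nearest at 9.30. Tkt was at 10.00 on wild type replicate 4 at 48 h, with the nearest array at 9.91. Taldo1 was at 9.95 on RAD001 replicate 1 at 9 d, with the nearest at 9.68.

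The genotype difference changed with time by limma's F-test for Rpia (adjusted p = 0.0047) and Taldo1 (adjusted p = 0.0338).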

How the results depend on the processing

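Of 798 alternative values for the 66 pairs of member and comparison, 731 kept both direction and side of the threshold, 39 lost their call, 13 gained one and 15 changed sign, of which 0 were called in either fit. The values of the other sign were -0.01 for Rpia under RAD001 at 12 h (median scaling), -0.14 for Idh1 under RAD001 at 15 d (a single array left out) and -0.03 for Idh1 in RAD001-treated against wild type at 12 h (quantile). At 6 d and 9 d Rpia changed to 0.05 (median scaling), 0.02 (array weights) and 0.09 (9 d alone). For RAD001-treated against wild type at 15 d, the array set as a covariate gave 0.16 for Me1, -0.08 for Pgd, -0.06 for Rpia and -0.04 for Taldo1, leaving out set B gave 0.28, -0.07, -0.10 and -0.09, and the replicate block gave 0.06 for Me1. Of 720 values with a single array left out, 19 changed sign, in 7 pairs of member and comparison. Leaving out single arrays gave 4 to 5 members called by genotype on average (5 with all arrays), 3 to 4 at 12 h (3), 1 to 3 at 48 h (3) and 1 to 2 at 15 d (2). For RAD001 it gave 0 to 2 at 12 h (2), 1 to 1 at 48 h (1) and 1 to 2 at 15 d (2). For RAD001-treated against wild type it gave 0 to 1 at 12 h (1). For the interaction of genotype and time it gave 1 to 3 (2), and for time in wild type placebo 0 to 3 (2).

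With only the groups compared, genotype called 5 members at 48 h and 0 at 15 d, RAD001 called 1 at 12 h and 0 at 15 d, RAD001-treated against wild type called 0 at 12 h, genotype by time 1 and time in wild type 4. Array weights gave 5 for genotype at 12 h, 0 for RAD001 at 15 d, 2 for RAD001-treated against wild type at 12 h and 4 for genotype by time. Median scaling gave 0, 1 and 1 for RAD001-treated against wild type at 12 h, genotype by time and time in wild type. With no filter, RAD001 called 1 at 15 d and time in wild type 1. Without the arrays with many zeros, genotype called 1 and RAD001 0 at 15 d. With the array set as a covariate genotype called 0 at 15 d and time in transgenic placebo 0. Without set B, genotype at 15 d, RAD001 at 15 d and time in transgenic placebo each called 0, and within set B RAD001 called 2; both of these were chosen after seeing the data. The cause of these changes was not tested.

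With the replicate number as a block, 1 member was called for genotype at 15 d, 0 for RAD001 at 15 d and 1 for genotype by time. The numbers did not pair the arrays in general: of 22 same-numbered pairs 2 had a correlation over 0.1, with a range of -0.25 to 0.478. These 2 pairs were transgenic placebo and RAD001 replicates 1 (0.395) and 2 (0.478) at 15 d. They are the transgenic arrays of set A, so at 15 d the block and the array set are not separate.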
